A study of Mus musculus with 2 samples.

Results

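Fibroblast growth factors (FGFs), hepatocyte growth factor and their receptors are the growth factor system by which dermal fibroblasts act on the epidermis. The 10 genes described here are Fgf2, Fgf7, Fgf10, Fgf18, Fgf22 and Hgf for the ligands and Fgfr1, Fgfr2, Fgfr3 and Met for the receptors. They were chosen by name, with earlier results of these data known. Of the 33793 probe sets of the array, 11 are annotated to exactly 1 of these symbols. The members are 10 of the 22180 genes with a probe set of their own.

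The study compared 2 three-dimensional mouse skin models, 1 labelled Itih5 knockout and 1 labelled wildtype, each measured on 1 array. Both titles mark day 7. Each model was made of keratinocytes and fibroblasts from the skin of untreated adult mice of that genotype, and the cells had been passaged repeatedly in culture. The knockout allele, the exact age of the mice and the number of mice per model were not stated in the labels. A single array per genotype leaves the spread between replicates unmeasured, so differences are given by size, without p-values, and the number of arrays limits the precision. Itih5, the gene named by the genotype, read 30.4 in the knockout model against 29.8 in the wildtype model, close to background on both arrays, so it checks neither label.

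In skin, FGF7 and FGF10 are secreted by fibroblasts and act on keratinocytes through an epithelial splice form of FGFR2. HGF is likewise made by mesenchymal cells, is secreted as an inactive precursor, and binds MET on epithelial cells. FGFs need heparan sulfate to bind their receptors, and receptor signals induce their own inhibitors, such as the Sprouty proteins and the phosphatase DUSP6.

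Of the 6 ligand genes, Fgf7, Fgf10 and Hgf read higher in the knockout model. Neither the ligands as a whole nor the receptors shared a direction. Fgf7, Fgf10 and Hgf were 2.52-fold, 2.87-fold and 2.06-fold higher, and Fgfr1, the main FGF receptor of fibroblasts, was 2.20-fold higher. Fgfr3 was 2.18-fold lower. Met and Fgfr2 were under 2-fold higher, and Fgf2, Fgf18 and Fgf22 differed little at intensities close to background. In all, 4 of the 10 genes passed 2-fold on the higher side, where 3.85% of the 12507 expressed genes did, and 1 on the lower side, where 3.35% did. Because the members were chosen with earlier results of these data known, these counts are a description and carry no test.

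Intensities are linear, 1 per probe set. The decimal point was missing from nearly all deposited values and was restored first, and the places it could take are given with the values. Differences are log2 of the knockout minus log2 of the wildtype intensity, and of values set against each other the knockout value comes first. A gene counted as expressed if its higher intensity reached 47.4, the median of all probe sets at their likeliest places. The arrays had medians of 47.1 (knockout) and 47.6 (wildtype), and the median difference of expressed genes was 0.04. All 10 members had a restored point and passed the expression threshold, Fgf18 only by its wildtype value.

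**Figure D1:**
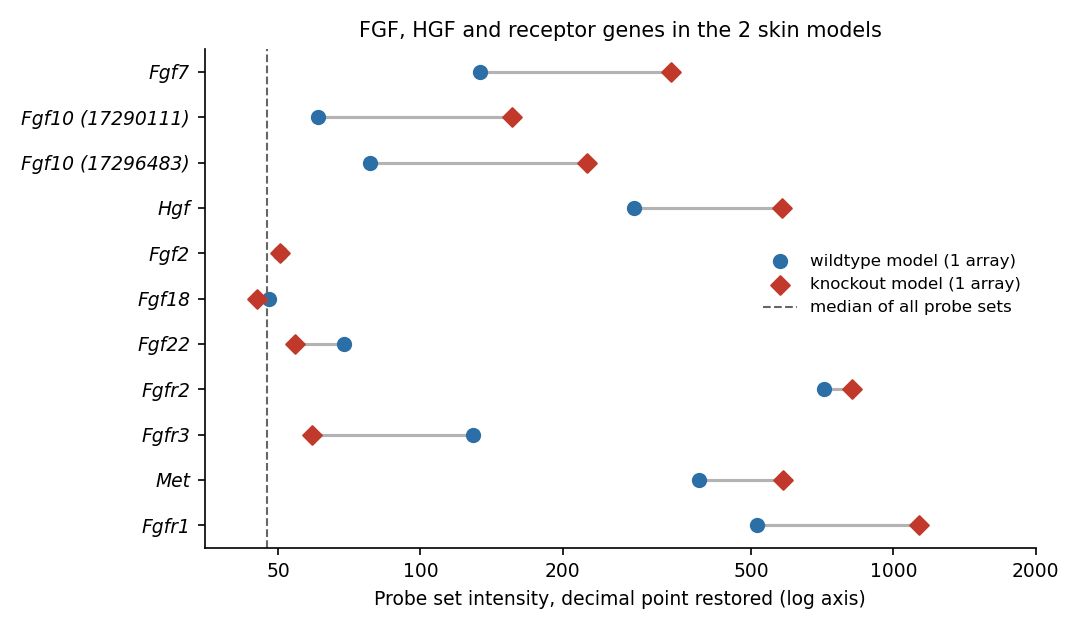
Probe set intensity (log axis) of each member in the wildtype model (circles) and the knockout model (diamonds), 1 array each, with both probe sets of Fgf10. Fgf7, Fgf10, Hgf, Fgfr1 and Met lie to the right in the knockout model and Fgfr3 to the left, from 129 to 59.1, while Fgf2 and Fgf18 sit at the dashed line, the median of all probe sets (47.4).

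Among the ligands, Fgf7 encodes keratinocyte growth factor, a mitogen of keratinocytes that is induced in wounded dermis. It read 338 in the knockout model against 134 in the wildtype model, or 1.33 as a log2 difference, with 1 possible place of the point on each array. A difference at least this high was seen in 1.74% of expressed genes.

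Fgf10, the close relative of Fgf7, has 2 probe sets. The brighter of them (17296483) read 225 in the knockout model against 78.2 in the wildtype model, or 1.52 as a log2 difference, the highest among the members. The other (17290111) read 156 against 60.9, a difference of 1.36 or 2.57-fold. Both probe sets placed the knockout model above the wildtype model, and all 4 values had 1 possible place. The probe sets differ in their neighbours by number. Of the neighbours of 17290111 within 10 numbered places on each side whose gene has a strand in the RefSeq table, 8 of 9 belong to plus-strand genes, as Fgf10 itself does. For 17296483, 11 of 12 belong to minus-strand genes. The strand of neither probe set is stated in the annotation, and whether the brighter one reads a transcript of the opposite strand was not tested.

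Hgf read 582 in the knockout model against 283 in the wildtype model, or 1.04 as a log2 difference that lies just past 2-fold. Its knockout value had a second possible place. At that place, with a probability of 0.006, Hgf would read 5824 against 283 and be 20.6-fold higher, so the direction is the same at both places. With a pseudocount of 20 its difference was 0.99, and quantile normalization also left Hgf just under 2-fold.

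The promoters of these 3 ligand genes are shown because the genes read higher together. Each is given for the 250 bases before the start of the gene's first RefSeq entry, on the gene's strand, from RefSeq on build GRCm38.p6. Capitals mark matches to 6 short motifs on either strand, namely the TATA box as TATAAA, the CCAAT box by the letters of its name, the GC box as GGGCGG, the binding site of AP-1 as TGANTCA, that of TEAD factors as CATTCC, and the E-box as CACGTG. Matches in these windows did not overlap.
Fgf7, chr2:126034408-126034657, plus strand: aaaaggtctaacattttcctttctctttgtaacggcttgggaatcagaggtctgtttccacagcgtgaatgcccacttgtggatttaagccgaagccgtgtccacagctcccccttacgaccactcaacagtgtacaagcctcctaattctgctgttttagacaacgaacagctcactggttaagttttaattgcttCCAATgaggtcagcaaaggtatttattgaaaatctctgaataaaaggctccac
Fgf10, chr13:118714449-118714698, plus strand: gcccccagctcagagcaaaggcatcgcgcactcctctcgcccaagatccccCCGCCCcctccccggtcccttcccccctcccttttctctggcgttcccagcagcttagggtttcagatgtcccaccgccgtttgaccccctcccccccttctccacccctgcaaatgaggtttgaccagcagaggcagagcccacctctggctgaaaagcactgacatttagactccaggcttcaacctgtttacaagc
Hgf, chr5:16553245-16553494, plus strand: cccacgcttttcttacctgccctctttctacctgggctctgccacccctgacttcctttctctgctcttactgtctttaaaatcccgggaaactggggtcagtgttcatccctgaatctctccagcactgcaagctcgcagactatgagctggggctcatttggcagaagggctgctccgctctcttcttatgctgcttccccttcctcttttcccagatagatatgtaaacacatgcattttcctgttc
The Fgf7 window held 1 CCAAT box, 53 bases before the start. Fgf10 had 1 GC box, 199 bases before the start, and Hgf had a match to none of the 6 motifs. Of all 32851 promoter windows of this length in the table, 33.8% held a CCAAT box and 32.7% a GC box. The shares were 12.4% for the TATA box, 12.6% for the TEAD site, 6.75% for the AP-1 site and 6.02% for the E-box. The windows of Fgf7, Fgf10 and Hgf contained 6, 8 and 4 CG dinucleotides, where the median of all windows was 6. Their GC content was 43.6%, 61.2% and 50.8%, around a median of 52.4%. No motif of the 6 was present in all 3 windows. These matches describe letters in the reference and are not binding sites measured here.

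Fgf2, Fgf18 and Fgf22 were dim on both arrays. Fgf2, a heparin-binding FGF without a classical secretion signal that acts on fibroblasts and endothelial cells, read 50.5 in the knockout model against 50.4 in the wildtype model. Fgf18, a ligand of the hair follicle, read 45.2 against 47.8, with its knockout value under the expression threshold. Fgf22, a relative of Fgf7 and Fgf10 known from the hair follicle's inner root sheath, read 54.3 against 69.1, a log2 difference of -0.35. All had 1 possible place of the point. The 5th percentiles of the arrays, 21.3 and 21.4, mark only their low end, and the 4 restored T cell markers read from 28.8 to 42.0. Differences of genes this dim are compressed by background.

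Among the receptors, Fgfr1 had the clearest value, since each array allowed 1 place of the point. It read 1132 in the knockout model against 514 in the wildtype model, or 1.14 as a log2 difference, and 2.63% of expressed genes had a difference at least as high.

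Fgfr2, whose epithelial splice form is the receptor of FGF7 and FGF10, read 818 in the knockout model against 715 in the wildtype model, 1.14-fold higher. A probe set for the whole gene does not separate the epithelial from the mesenchymal splice form. Esrp2, a splicing regulator that promotes the epithelial form, read 229 against 621. At the other possible place of its wildtype value (probability 0.006), Fgfr2 would read 818 against 71.5.

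Fgfr3, a receptor of keratinocytes of the epidermis whose activating mutations underlie benign epidermal growths, read 59.1 in the knockout model against 129 in the wildtype model. Its log2 difference was -1.12, and 2.74% of expressed genes had a difference at least as low. Its wildtype value could also stand for 1286 (probability 0.008), which would make Fgfr3 21.8-fold lower. The direction is the same at both places. With a pseudocount of 20 the difference was -0.91, under 2-fold.

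Met read 585 in the knockout model against 388 in the wildtype model, 1.51-fold higher, and 11.6% of expressed genes had a difference at least as high. Met is the member whose direction depends on the place of its point. At the other place of its knockout value, with a probability of 0.017, Met would read 58.5 against 388 and be 6.64-fold lower. This probability rests on how common such a level and size of difference are over all probe sets, and uses nothing particular to Met.

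**Figure D2:**
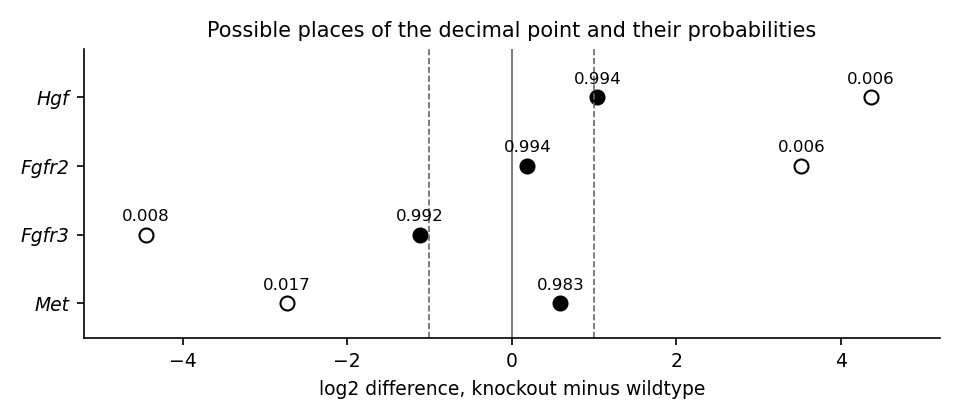
Log2 difference (knockout minus wildtype) of the members with several possible places of the decimal point, at the likeliest place (filled) and at the other place (open), each labelled with its probability; dashed lines mark 2-fold. Hgf, Fgfr2 and Fgfr3 keep their direction at both places, and Met goes from 0.59 to -2.73.

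The promoter of Fgfr3 is shown beside those of the ligands because Fgfr3 alone among the members read at least 2-fold lower. It was taken from the same table, build and window, with the same motifs in capitals.
Fgfr3, chr5:33721474-33721723, plus strand: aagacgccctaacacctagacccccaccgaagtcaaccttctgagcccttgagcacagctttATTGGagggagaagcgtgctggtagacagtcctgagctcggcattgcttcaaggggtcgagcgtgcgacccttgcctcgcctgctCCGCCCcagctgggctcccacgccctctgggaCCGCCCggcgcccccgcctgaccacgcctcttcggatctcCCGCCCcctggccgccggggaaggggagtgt
The Fgfr3 window held 3 GC boxes and 1 CCAAT box, with 19 CG dinucleotides and a GC content of 66.8%. All 3 ligand windows above had fewer CG dinucleotides. Of the other members, Fgf2, Fgf18, Fgf22 and Met had 20, 37, 15 and 24 in this window, and Fgfr2 had 2. Of the 9 members with a promoter in the table, Hgf and Fgfr3 have a second start there, which is not shown.

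Ligands and receptors overlapped in their differences. The 6 ligand genes had a median of 0.52 and ranged from -0.35 to 1.52, and the 4 receptor genes had a median of 0.39 and ranged from -1.12 to 1.14. With 1 possible place only, these medians were 0.00 over 5 ligands and 1.14 for Fgfr1 alone, in the opposite order. A narrower split by role separated them more, but it kept only 3 of the 6 ligands and left out Fgfr1. Fgf7, Fgf10 and Hgf lay between 1.04 and 1.52, whereas the receptors that serve epithelial cells, Fgfr2, Fgfr3 and Met, lay between -1.12 and 0.59. The ligands left out, Fgf2, Fgf18 and Fgf22, lay inside that receptor range, at 0, -0.08 and -0.35. The 3 ligands and 3 receptors kept did not overlap at the likeliest places. These groups were formed with the values known, so this is a description. With the point of Fgfr2 alone at its less likely place, its difference of 3.52 would lie above those of all 3 ligands.

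**Figure D3:**
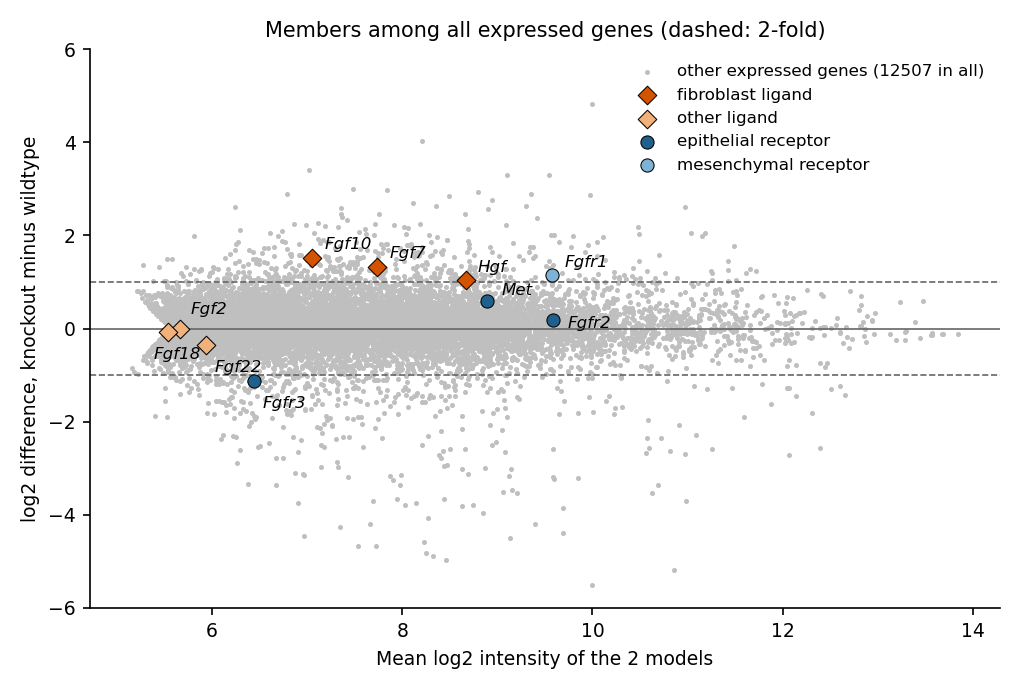
Log2 difference (knockout minus wildtype) against mean log2 intensity for 12507 expressed genes (grey), with member ligands as diamonds and member receptors as circles; dashed lines mark 2-fold. Fgf7, Fgf10, Hgf and Fgfr1 lie above the upper line, Fgfr3 lies below the lower line, and Fgf2, Fgf18 and Fgf22 lie at the dim end near 0.

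The share of genes past 2-fold depends on the level. Fgf7 and Fgf10 lie among expressed genes with a mean intensity of 100 to 400, of which 5.02% were at least 2-fold higher and 3.87% lower. Hgf, Met, Fgfr1 and Fgfr2 lie above 400, where 5.05% were higher and 4.05% lower. Fgf2, Fgf18, Fgf22 and Fgfr3 lie under 100, where 1.84% were higher and 2.36% lower.

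Markers of the cells that make up the models differed too. Of 12 fibroblast markers, 9 were restored and expressed, and all 9 were above 0, with a median of 0.84 and a range from 0.36 (S100a4) to 1.63 (Twist2). Of these, 2 were at least 2-fold higher. Their summed intensity over 11 restored genes was 14065 against 7674, and Lum and Fap were under the threshold in both. Fgf7, Fgf10, Hgf and Fgfr1, at 1.33, 1.52, 1.04 and 1.14, lay above this median and inside this range. All 9 restored epithelial markers were below 0, from -0.30 (Epcam) to -2.51 (Grhl3), with a median of -1.44 and a summed intensity of 5556 against 13883, and 6 were at least 2-fold lower. Basal keratinocyte markers had a median of -1.12 over 4 restored genes, 3 of them at least 2-fold lower, and a summed intensity of 7420 against 18347. Another 3 basal markers had an undecided point. At their likeliest places Trp63 and Col17a1 read lower in the knockout model and Itgb4 read higher, with 687 against 617. Krt14, the basal keratin, read 4076 against 9538. Suprabasal markers had a median of -1.63 over 8 expressed genes, 6 of them at least 2-fold lower, and summed to 3464 against 13343. Ivl, at 0.02, and Krt1, at -0.46, were under 2-fold. Fgfr2 and Met, at 0.19 and 0.59, lay above every restored epithelial marker, and Fgfr3, at -1.12, lay within their range. In bulk RNA, fewer cells of a type and less RNA per cell cannot be told apart. The part of the cell type balance in the members' differences was not tested.

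Markers of other cell types were partly above the expression threshold. All 4 restored T cell markers were under it and lay between 28.8 and 42.0 on both arrays. Of 6 endothelial markers, which summed to 272 against 235, Pecam1, Cdh5, Tek and Emcn were under it, Vwf read 50.4 against 53.0, and Kdr read 87.4 against 36.1. Of 6 restored macrophage and Langerhans cell markers, which summed to 1157 against 1524, 4 were under it, Cd68 read 861 against 1161, and Lyz2 read 151 against 203. Of 7 melanocyte markers, which summed to 1379 against 546, Tyr, Dct and Tyrp1 were under it. The other 4 were Mlana with 705 against 109, Mitf (464 against 215), Pmel (69.2 against 56.5) and Sox10 (51.3 against 66.4), of which the first pair passed 2-fold. The 6 adipocyte markers summed to 5644 against 1362. Fabp4 alone gave 4974 against 816, Pparg read 502 against 384 and Plin1 74.8 against 62.6, while Adipoq, Lep and Cidec were under the threshold in both. Of 4 restored mural and muscle markers, which summed to 204 against 204, Des, Myh11 and Cspg4 were expressed, at most 68.2. That sum leaves out Acta2, whose point was undecided. At its likeliest place (probability 0.817) Acta2 read 287 against 151, higher in the knockout model. Of 2 Schwann cell markers, Mbp read 65.3 against 108 and S100b was under the threshold. The part of these cells in the members' differences was not tested.

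The secreted FGFs outside the members were dim. Of 13 such genes, 5 were expressed (Fgf1, Fgf4, Fgf8, Fgf17 and Fgf21), and 0 of them reached 2-fold, with differences from 0.01 to 0.16 and a highest intensity of 72.5. The other 8 were under the threshold in both models or, for Fgf15, had its used probe set there. Among the intracellular FGFs, Fgf11 alone was expressed, with 59.0 against 58.9. Fgfr4, the remaining signalling receptor of the family, was under the threshold, with 45.5 against 42.1. Fgfrl1, a receptor without a kinase domain, read 136 against 98.0.

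The 6 expressed receptor partners and FGF-binding genes had a median of -0.51, and 1 of them was at least 2-fold lower and 0 higher. Fgfbp1, a keratinocyte protein that releases FGFs from heparan sulfate, read 881 in the knockout model against 1792 in the wildtype model, 2.03-fold lower. Flrt2, a transmembrane protein that can bind FGF receptors, read 197 against 360, under 2-fold.

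Genes for heparan sulfate chains, their carriers and the enzymes that edit them went both ways. Of 17 expressed genes with a restored point, 13 were above 0 and 4 below, with a median of 0.23, and 13 were under 2-fold. Of all expressed genes, 54.4% were above 0. Of the 17, 3 reached 2-fold on the higher side and 1 on the lower side, a description that carries no test. Sulf1, a sulfatase that removes sulfate groups from heparan sulfate at the cell surface and so changes FGF binding, read 411 in the knockout model against 93.2 in the wildtype model, 4.41-fold higher. Gpc6, a glypican that carries heparan sulfate on the membrane, was 3.33-fold higher, with 406 against 122. Hpse, heparanase, was 2.61-fold higher on its brighter probe set, with 289 against 111, while its other probe set was under the threshold in both models. Hs3st1, a heparan sulfate sulfotransferase, read 45.1 in the knockout, under the threshold, and 101 in the wildtype model. The syndecans Sdc1 (588 against 798), Sdc3 (233 against 210) and Sdc4 (1384 against 1260) were under 2-fold. The dimmer probe set of Sdc1 went the other way, with 180 against 161. Sdc2, Gpc3 and the brighter probe set of Gpc1 had an undecided point. At their likeliest places (probabilities 0.590, 0.661 and 0.514) they read higher in the knockout model.

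Of 13 expressed genes that relay the signal inside the cell, 1 passed 2-fold on the higher and 1 on the lower side, and the median was -0.15. They were a pair of related docking proteins. Gab1, which binds activated MET directly, read 212 in the knockout model against 457 in the wildtype model, 2.16-fold lower. Gab2 read 1029 against 348, 2.96-fold higher. The other 11, among them Grb2, Sos1, Ptpn11 and Braf, were under 2-fold.

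Feedback inhibitors and target genes gave no common direction. The median of 11 expressed genes was 0.16, and 2 of them passed 2-fold, both higher. Spry3, a Sprouty gene, read 171 against 78.9 and Spred3, a related inhibitor, 167 against 78.3. The genes usually read as targets of FGF signalling were under 2-fold. Dusp6 read 513 in the knockout model against 790 in the wildtype model, Etv4 123 against 129, Etv5 102 against 124, Spry2 139 against 165 and Spry4 103 against 86.9. Dusp4, Dusp5 and Spred1 had an undecided point and are not counted. At their likeliest places Dusp4 and Dusp5 read over 2-fold lower, with 192 against 464 and 173 against 468, and Spred1 read 94.9 against 87.3.

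On the HGF side, the list of activating proteases and their inhibitors held 6 expressed genes with a restored point. All 6 were below 0, with a median of -0.43, and 2 were at least 2-fold lower. Of all expressed genes, 54.4% were above 0 and 3.35% were at least 2-fold lower. Among the 6, Hgfac and Hpn (45.7 against 52.3) were close to the expression threshold. These counts are a description and leave out Plau and Spint2, whose points were undecided. At its likeliest place Plau, the urokinase gene, read higher in the knockout model, with 2364 against 1172. Tmprss13, a transmembrane protease that can cleave the HGF precursor, read 150 in the knockout model against 480 in the wildtype model, 3.21-fold lower. Spint1, which encodes an inhibitor of HGF activator and of matriptase, read 272 against 634, 2.33-fold lower. St14, the matriptase gene, read 590 against 855, under 2-fold, and Hgfac, HGF activator itself, 52.0 against 55.6. The part of the cell type balance in these differences was not tested either. Of the relatives of HGF and MET, Mst1 read 108 against 144 and its receptor Mst1r 126 against 234 with a probability of 0.952 for its place. Plxnb1, a plexin that associates with MET, read 140 against 248. All 3 were under 2-fold.

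**Figure D4:**
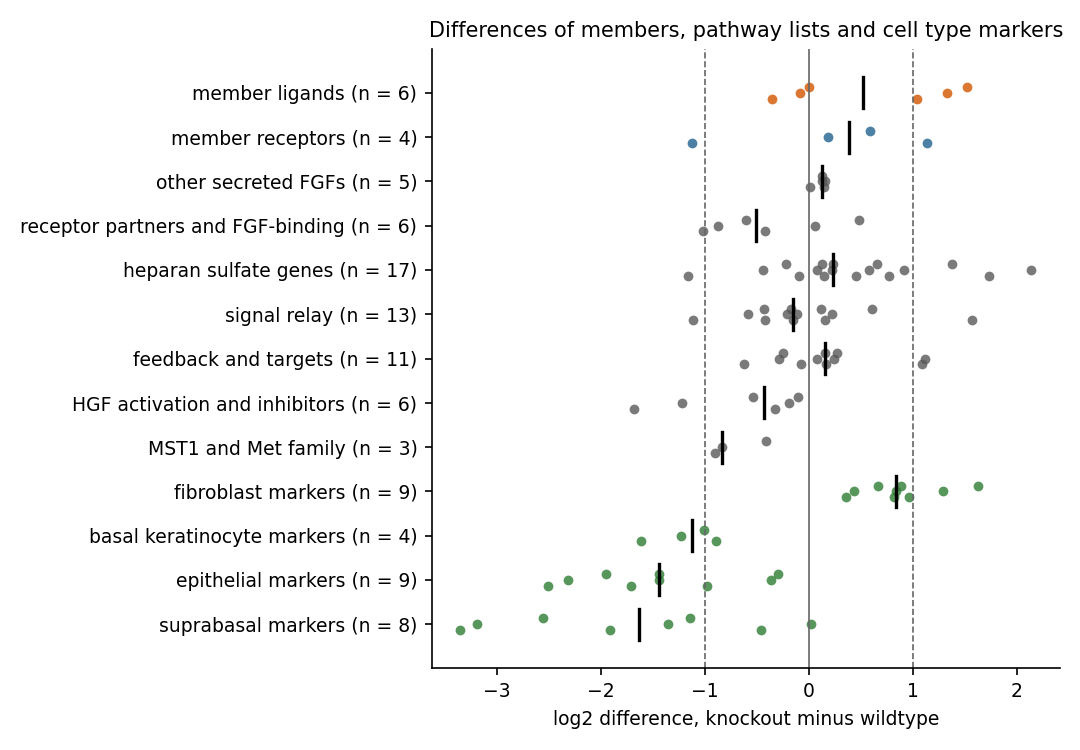
Log2 difference (knockout minus wildtype) of every expressed gene with a restored point (points) in the member groups, the pathway lists and the marker lists, with the median of each as a bar and dashed lines at 2-fold. The member ligands fall into a group near 0 and a group above 1, heparan sulfate genes reach 2.14 (Sulf1), fibroblast markers lie above 0 and all 9 epithelial markers below it.

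Over all 8 pathway lists, 62 genes were expressed, their median difference was 0.03, and 6 of them passed 2-fold on the higher and 5 on the lower side, where 3.85% and 3.35% of all expressed genes did. The named genes of these lists were Sulf1, Gpc6, Hpse, Gab2, Spry3 and Spred3 on the higher side and Tmprss13, Spint1, Hs3st1, Gab1 and Fgfbp1 on the lower side.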

How the data were processed

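Each model was hybridised to 1 array, after amplification and biotin labelling with whole-transcript kits, per the labels' protocols. The authors deposited a table of intensity values per probe set. The labels state no software, normalization between arrays or genome build. The decimal point was missing from 67457 of 67586 values; a place was possible if it gave a number from 18 to 20000 that is the shortest form of a single-precision number and 2 to a single-precision power. Each probe set's pairs of places were weighted by the joint distribution of level and difference (expectation maximisation, 25 rounds, all probe sets), and a pair was accepted from a probability of 0.95. This accepted 31843 of 33793 probe sets, with 48.4 misplaced by their summed probabilities, and left 1950 undecided. The restoration was tested on simulated data. There the true place was always among the possible ones, but large differences of certain sizes were mostly left undecided, and a few of the largest accepted ones were misplaced. Counts past 2-fold therefore leave out an unknown number of strongly differing genes. Log2 of the restored intensities was used without further normalization.

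Names came from the platform annotation, which gave 1 symbol for 23521 probe sets, several for 1814 and none for 8458, and 23328 of the first had an Entrez identifier in the RefSeq table of GRCm38.p6. A gene with several probe sets was represented by its brightest. The text names all members, the genes of the pathway lists at least 2-fold apart (up to 6 per list), and others chosen after their values were seen, for their known role. Members, roles, lists and the alternatives of the closing section were chosen with earlier results of these data known. Python 3.11.15, numpy 2.4.6 and pandas 2.3.3 were used.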

Additional observations from a re-analysis of the deposited data

How the results depend on the processing

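No member's log2 difference reversed or moved by over 1.5-fold in 112 values under 12 alternatives, but most of these values could not change. Only quantile normalization, median centring and the pseudocount could alter every member, and the choices of probe set could alter Fgf10. The other alternatives could only drop a member or shift a threshold. None moved a decimal point to its other place, where Met would reverse. The choice of the Fgf10 probe set among plus-strand neighbours was added after seeing the data and changed no count. Hgf ranged from 0.99 to 1.06 and Fgfr3 from -1.14 to -0.91, so both lie near 2-fold. With 1 possible place only, 3 members were at least 2-fold higher and 0 lower, since Hgf, Fgfr2, Fgfr3 and Met are left out, the ligand median was 0.00 over 5 genes and the receptor median 1.14 (Fgfr1 alone), which turns the order of these medians, and 304 of all expressed genes were higher, because fewer genes are tested. With a pseudocount of 20, 0 members were lower. With a filter 1 log2 above the median the ligand median was 1.33, since Fgf2, Fgf18 and Fgf22 drop out. A 1.5-fold threshold gave 10 higher and 10 lower pathway genes, and 1471 higher and 1048 lower genes in all. A 3-fold threshold gave 0 higher and 0 lower members, 2 higher and 1 lower pathway genes, and 128 higher and 182 lower genes in all. Of 212 list medians under alternatives, 6 moved, and those of the melanocyte and endothelial markers lay below 0 without the expression filter (-0.07 and -0.13) and above 0 with it (0.70 and 0.60). No paired analysis was possible because there is 1 array per genotype, which also leaves no sample to omit. Undecided points and background limit what these arrays show of dim or strongly differing genes.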

Other observations

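Some genes of the lists had an undecided decimal point and are in no count above. At their likeliest places, Sdc2, a syndecan of fibroblasts, read 1510 in the knockout model against 608 in the wildtype model with a probability of 0.590. The place of Plau given above has a probability of 0.751. Dusp4 and Dusp5, phosphatases that restrain MAP kinase signals, read 192 against 464 (0.781) and 173 against 468 (0.725). Spint2, a relative of Spint1, read 434 against 803, and Esrp1, the partner of Esrp2 in epithelial splicing, 336 against 809. For Gpc1, the brighter probe set was undecided, and the value counted was that of its dimmer probe set, 77.0 against 65.8.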
